A study of Mus musculus with 24 samples.

Results

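Departure from additivity was measured in C2C12 cells, an immortalised mouse myoblast line, after depletion of Keap1, of Fem1b or of both. Additive here means that the log2 change caused by both siRNAs together equals the sum of the log2 changes of each alone. The departure, called the interaction below, is the siKeap1 effect in cells that also received siFem1b minus the siKeap1 effect in cells that did not. It was computed for every gene, and all 24 of the 24 samples used here entered it. They are 12 poly(A) RNA libraries, each sequenced in 2 runs that were summed. The groups, of 3 libraries each, were undifferentiated, sub-confluent myoblasts that received a non-targeting siRNA (siCont), siKeap1, siFem1b, or both siRNAs (siFem1b/Keap1), and all were harvested after 48 h. A single siRNA per gene was used, the cells are of 1 line, and the total siRNA amount in the double depletion is not given in the sources used here. The labels do not say whether the libraries of a group came from separate cultures, so p-values measure only how far these libraries scatter, which may be technical.

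KEAP1 is the substrate receptor of a CUL3 ubiquitin ligase that holds the transcription factor NRF2 (Nfe2l2) at a low level. When KEAP1 is lost or oxidised, NRF2 accumulates and switches on genes for glutathione synthesis, quinone and aldehyde detoxification and NADPH supply. FEM1B is the substrate receptor of a CUL2 ligase that targets FNIP1, a partner of folliculin (FLCN), when reductive stress leaves cysteines of FNIP1 reduced. FLCN and FNIP proteins act at the lysosome, where they control the phosphorylation of TFEB and TFE3, transcription factors of lysosomal genes. ATF4, the effector of the integrated stress response, drives amino acid uptake, serine and one-carbon enzymes and aminoacyl-tRNA synthetases, and shares the cystine transporter gene Slc7a11 with NRF2.

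Each siRNA matches a coding site of its target on mouse chromosome 9, and the sites are shown because the comparison rests on both depletions. They are printed with the 19 bases matched by the siRNA in capitals and 5 flanking bases on either side, 5′ to 3′ on the transcript, from GENCODE M21 transcripts.
Keap1: tagtcGCGCCAATGTTGACACGGAggatt
Fem1b: gcgaaGAAGATCAGTGCAGAATTAacaag
The Keap1 match lies at chr9:21231850-21231868 (GRCm38, minus strand), in exon 4 of 6 of a coding transcript, and 5 Keap1 transcripts hold it. The Fem1b match lies at chr9:62796575-62796593 (minus strand), in exon 2 of 2. Levels are given as CPM, the counts of a gene relative to a fixed library total, scaled with TMM factors. Keap1 read 60.6, 63.3 and 61.4 CPM in the siCont libraries and 10.2, 11.1 and 8.59 CPM with siKeap1. It read 56.7, 57.5 and 63.3 CPM with siFem1b and 9.57, 9.20 and 9.38 CPM with both. Fem1b read 95.2, 94.1 and 101 CPM in siCont and 102, 106 and 97.8 CPM in siKeap1, against 12.8, 13.6 and 13.4 CPM in siFem1b and 12.4, 14.2 and 11.6 CPM in the double depletion. Both targets were low in exactly the libraries labelled with their siRNA, with no overlap, and the log2 change was -2.63 alone and -2.66 combined for Keap1, and -2.87 and -3.00 for Fem1b. The interaction was -0.03 ± 0.10 (log2 ± SE, adjusted p = 0.90) for Keap1 and -0.13 ± 0.09 (adjusted p = 0.39) for Fem1b. Reads of Keap1 and of its antisense partner cannot be told apart, since strand use in the counting is not given in the sources used here.

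Estimated counts per library ranged from 31.9 M to 43.0 M reads, and 14577 genes passed the filter on low counts. The first principal component held 55.5% of the variance of log2 CPM and the second 21.2%. The interaction passed an adjusted p of 0.05 in 1667 genes (11.4%). Of these, 891 (6.11% of all tested) were higher with both siRNAs than the sum predicts and 776 (5.32%) were lower. The interaction was small in most of them, with a median size of 0.36 log2 units. A departure of 2-fold or more was called for 49 genes on the higher side and 116 on the lower side. The balance of both directions rested on the scaling: with each library in turn as the TMM reference, the share of calls on the higher side ran from 38.1% to 53.4%, while the number called stayed between 1636 and 1686. The fit reported here made the same calls as siFem1b/Keap1 replicate 3 as reference, at the 53.4% end. Under DESeq2 size factors 796 genes were called higher and 853 lower. The number of higher calls was 517 without siFem1b replicate 1, 501 without siFem1b replicate 3, 499 without siFem1b/Keap1 replicate 1 and 541 without siFem1b/Keap1 replicate 3, and the number of lower calls was 1192 without siFem1b replicate 2.

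The siKeap1 effect was measured in 2 independent sets of libraries, without and with siFem1b. Alone, siKeap1 raised 2681 genes (18.4%) and lowered 3475 (23.8%). In siFem1b cells it raised 3104 (21.3%) and lowered 3180 (21.8%). Called in both settings were 1810 genes higher and 2255 lower, while 55 genes rose alone and fell with siFem1b and 80 did the reverse. Across all genes the log2 effects had a Pearson r of 0.621, a description over genes, which are not replicates. The 544 genes raised at least 2-fold by siKeap1 alone had a median log2 change of 1.52 there and of 0.95 in siFem1b cells. Chosen the other way, the 381 genes raised at least 2-fold in siFem1b cells had medians of 1.40 there and 1.33 alone. Read in the other direction, siFem1b alone raised 4373 genes (30.0%) and lowered 4674 (32.1%), and in siKeap1 cells it raised 4665 (32.0%) and lowered 4602 (31.6%). Of these, 3593 rose and 3817 fell in both settings, with an r of 0.832 across genes. The interaction uses the libraries of all these comparisons and is the same number whichever siRNA is taken first.

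**Figure D1:**
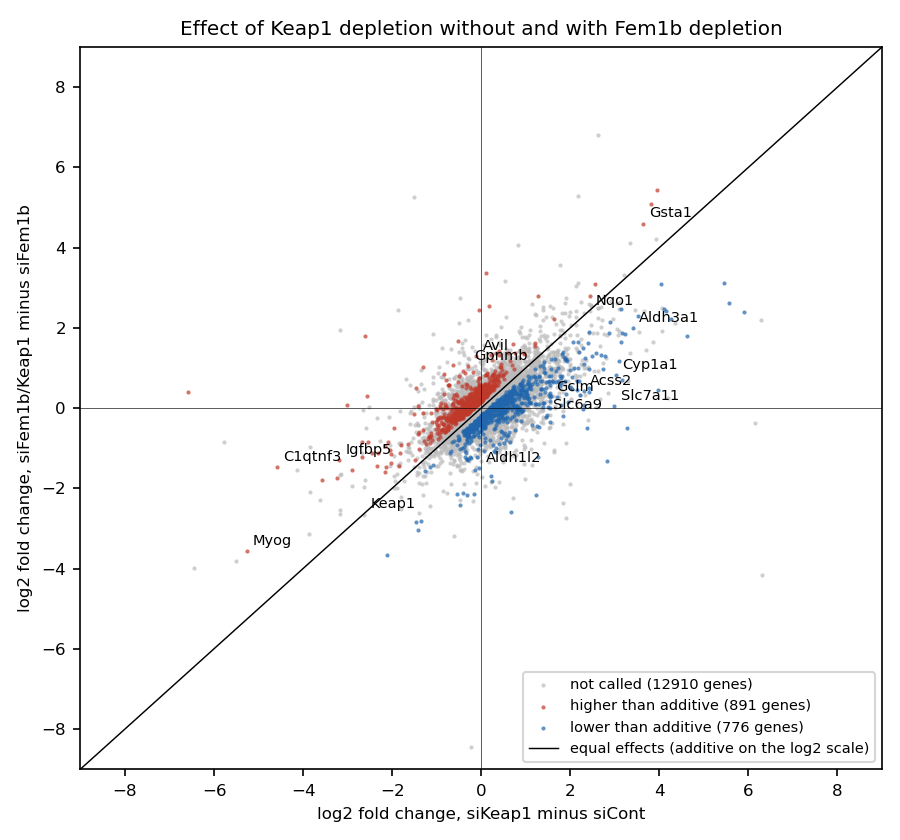
Each point is a gene, with the log2 fold change of siKeap1 against siCont on the horizontal axis and of siFem1b/Keap1 against siFem1b on the vertical axis. The line marks equal effects, red points the 891 genes called higher than additive, blue points the 776 called lower, and grey points the 12910 genes not called. Slc7a11 lies far below the line and C1qtnf3 far above it, while Nqo1 lies on it.

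Nqo1, the NAD(P)H quinone dehydrogenase that is a textbook NRF2 target, shows what additivity on the log2 scale looks like. It read 70.2, 74.7 and 77.3 CPM in siCont, 408, 411 and 383 CPM in siKeap1, 27.9, 28.2 and 29.2 CPM in siFem1b and 153, 152 and 152 CPM in the double depletion. The sum of both log2 effects predicts 154 CPM, and the interaction was -0.02 ± 0.06 (adjusted p = 0.91). The groups did not overlap, yet siKeap1 multiplied the level by nearly the same factor in both settings, a log2 change of 2.44 alone and 2.42 with siFem1b. On a linear scale, where additive means that CPM differences sum, the same libraries fell short of the sum by 203 CPM (limma, adjusted p = 2.8e-06). Statements below are on the log2 scale, and genes whose direction turns on the linear scale are named as such.

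Most genes of the ATF4 stress response were lower than additive. Of 47 members, all of them tested, 29 were called lower (61.7%) and 0 higher, against 5.32% and 6.11% of all genes, and the median interaction was -0.305 against 0.02 over all genes. At an unadjusted p under 0.05, edgeR put 2 members on the higher side. The 34 other settings on the log2 scale, DESeq2's Wald test among them, called 27 to 33 members lower and 0 higher. The linear scale called 17 lower and 0 higher. In 33 of the 47 members the double-depletion libraries lay below all 9 others, against 11.8% of all genes tested. Additive falls can place them lowest too, so this rank does not measure the departure. siFem1b alone raised 7 members (against 30.0% of all genes) and lowered 33 (against 32.1%). In siKeap1 cells siFem1b raised 4 (against 32.0%) and lowered 38 (against 31.6%). siKeap1 alone raised 6 members and lowered 26, and in siFem1b cells it raised 3 and lowered 38, with median log2 changes of -0.145 and -0.384. Of all genes tested, it raised 18.4% and lowered 23.8% alone, and raised 21.3% and lowered 21.8% in siFem1b cells. Atf4 itself was not called, with an interaction of -0.20 ± 0.07 (adjusted p = 0.074).

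The promoters of these genes often hold the letters of the C/EBP-ATF response element, TGATGNAA, at which ATF4 binds with a C/EBP partner. Windows of 250 bases before to 50 after the RefSeq start (GRCm38.p6) were found for 10825 of 14564 gene symbols tested, and both strands were searched. Unless windows are named, shares are of genes with a window. A gene counted if any of its windows held a match, so several windows gave more chances. The element was present in 11 of 23 members called lower (47.8%) and in 14 of 37 of the whole list (37.8%). It was present in 3.00% of all tested genes with a window. Counted by window and not by gene, it was in 3.97% of all 32851 windows. It was present in 6.39% of all genes called lower, in 4.77% once the ATF4 list was left out, and in 2.85% of genes called higher. The list was drawn up from known targets, so this share describes the list and is no test. A match is a string of letters, not a measured binding site. Stretches of 30 bases around matches upstream of the start follow, from RefSeq, 5′ to 3′ on the gene's strand, with the match in capitals on either strand. Slc7a11, which stands in the transporter list and not in the ATF4 list, holds 2 matches, 1 on each strand. The 4 others are members called lower; Pycr1 and Nupr1 were chosen for their matches after values were seen.
Slc7a11, chr3:50443652-50443681, minus strand: gcTGATGCAAacctggagaatTTGCATCAt
Chac1, chr2:119351038-119351067, plus strand: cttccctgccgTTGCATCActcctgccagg
Atf3, chr1:191183425-191183454, minus strand: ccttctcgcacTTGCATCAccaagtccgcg
Pycr1, chr11:120643833-120643862, minus strand: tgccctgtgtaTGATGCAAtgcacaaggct
Nupr1, chr7:126625562-126625591, minus strand: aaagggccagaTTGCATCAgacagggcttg

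Among amino acid transporters, Slc7a11, Slc6a9 and Slc7a5 fell short of the sum. Slc7a11, the cystine-glutamate exchanger, read 19.9, 17.9 and 20.3 CPM in siCont and 161, 158 and 143 CPM in siKeap1. It read 10.4, 11.4 and 9.44 CPM in siFem1b and 11.3, 9.17 and 11.9 CPM with both siRNAs. The siFem1b and double-depletion libraries overlapped, whereas siKeap1 without siFem1b stood far above all others. Additivity predicts 82.7 CPM, 7.64 times the level measured, and the interaction was -2.93 ± 0.12 (adjusted p = 3.67e-10). Slc6a9, the glycine transporter GLYT1, read 28.3, 28.4 and 26.9 CPM in siCont, 75.4, 76.4 and 80.3 CPM in siKeap1, 29.0, 28.8 and 28.7 CPM in siFem1b and 26.0, 25.4 and 25.5 CPM with both. siKeap1 raised it by 1.47 log2 units alone and changed it by -0.17 in siFem1b cells, both past the test, and the interaction was -1.64 ± 0.06 (adjusted p = 1.13e-11). Slc7a5, the large neutral amino acid transporter LAT1, read 312, 315 and 324 CPM in siCont, 276, 264 and 263 CPM in siKeap1, 204, 214 and 209 CPM in siFem1b and 90.6, 88.1 and 89.2 CPM with both. The double depletion lay below every other library, 1.97 times under the 176 CPM predicted (interaction -0.98 ± 0.05, adjusted p = 3.11e-10). Slc3a2, the shared heavy chain of SLC7A5 and SLC7A11, rose by 0.34 log2 units with siKeap1 alone and fell by 0.41 with siKeap1 in siFem1b cells. Of 23 transporters tested 7 were called lower (30.4%, against 5.32% of all genes) and 1 higher (4.35%, against 6.11%). The higher one was Slc38a7, a lysosomal glutamine exporter, at 0.24 ± 0.05 (adjusted p = 0.0065). Slc3a2, Slc6a9, Slc7a5 and other transporters also stand in the ATF4 list, and Slc7a11 in the NRF2 list, so these lists share calls.

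Enzymes and regulators of the same programme were lowest with both siRNAs. Aldh1l2, a mitochondrial folate enzyme, read 109, 97.9 and 113 CPM in siCont and 107, 104 and 98.0 CPM in siKeap1, and 64.2, 68.2 and 63.1 CPM in siFem1b. With both siRNAs it read 23.1, 24.0 and 22.3 CPM, below all other libraries and 2.72 times under the 63.1 CPM predicted (interaction -1.44 ± 0.08, adjusted p = 4.40e-10). siKeap1 alone did not pass the test there (log2 -0.05), and in siFem1b cells it changed the level by -1.49. Chac1, a glutathione-degrading enzyme, read 20.5, 23.9 and 21.6 CPM in siCont, 19.4, 19.8 and 20.8 CPM in siKeap1, 34.3, 31.8 and 31.7 CPM in siFem1b and 11.1, 11.5 and 10.9 CPM with both. siFem1b thus raised Chac1 alone and lowered it in siKeap1 cells, by 0.57 and -0.84 log2 units, and both passed the test (interaction -1.41 ± 0.09, adjusted p = 4.71e-09). Trib3, a pseudokinase that restrains ATF4, was 16.7 ± 0.681 CPM (SD, n = 3) in siCont, 13.4 ± 0.0989 in siKeap1, 15.7 ± 0.662 in siFem1b and 6.50 ± 0.189 with both (interaction -0.96 ± 0.09, adjusted p = 7.59e-07). Atf3, a stress-induced repressor of the same family, went from 17.3 ± 1.34, 18.2 ± 0.494 and 14.9 ± 1.21 CPM (SD, n = 3) in those 3 groups to 8.21 ± 0.333 with both (interaction -0.94 ± 0.10, adjusted p = 6.24e-06). Mthfd2, a mitochondrial folate enzyme, read 42.0 ± 0.965 CPM (SD, n = 3) with both against 61.3 predicted, and its interaction of -0.55 ± 0.05 (adjusted p = 1.84e-06) did not pass the test on the linear scale (adjusted p = 0.32). The figure of members shows the tRNA synthetases as a block of small departures, with those for tyrosine, glycine, isoleucine, threonine, glutamate and proline, asparagine, cysteine and leucine called lower and those for alanine, methionine, serine and tryptophan not called.

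**Figure D2:**
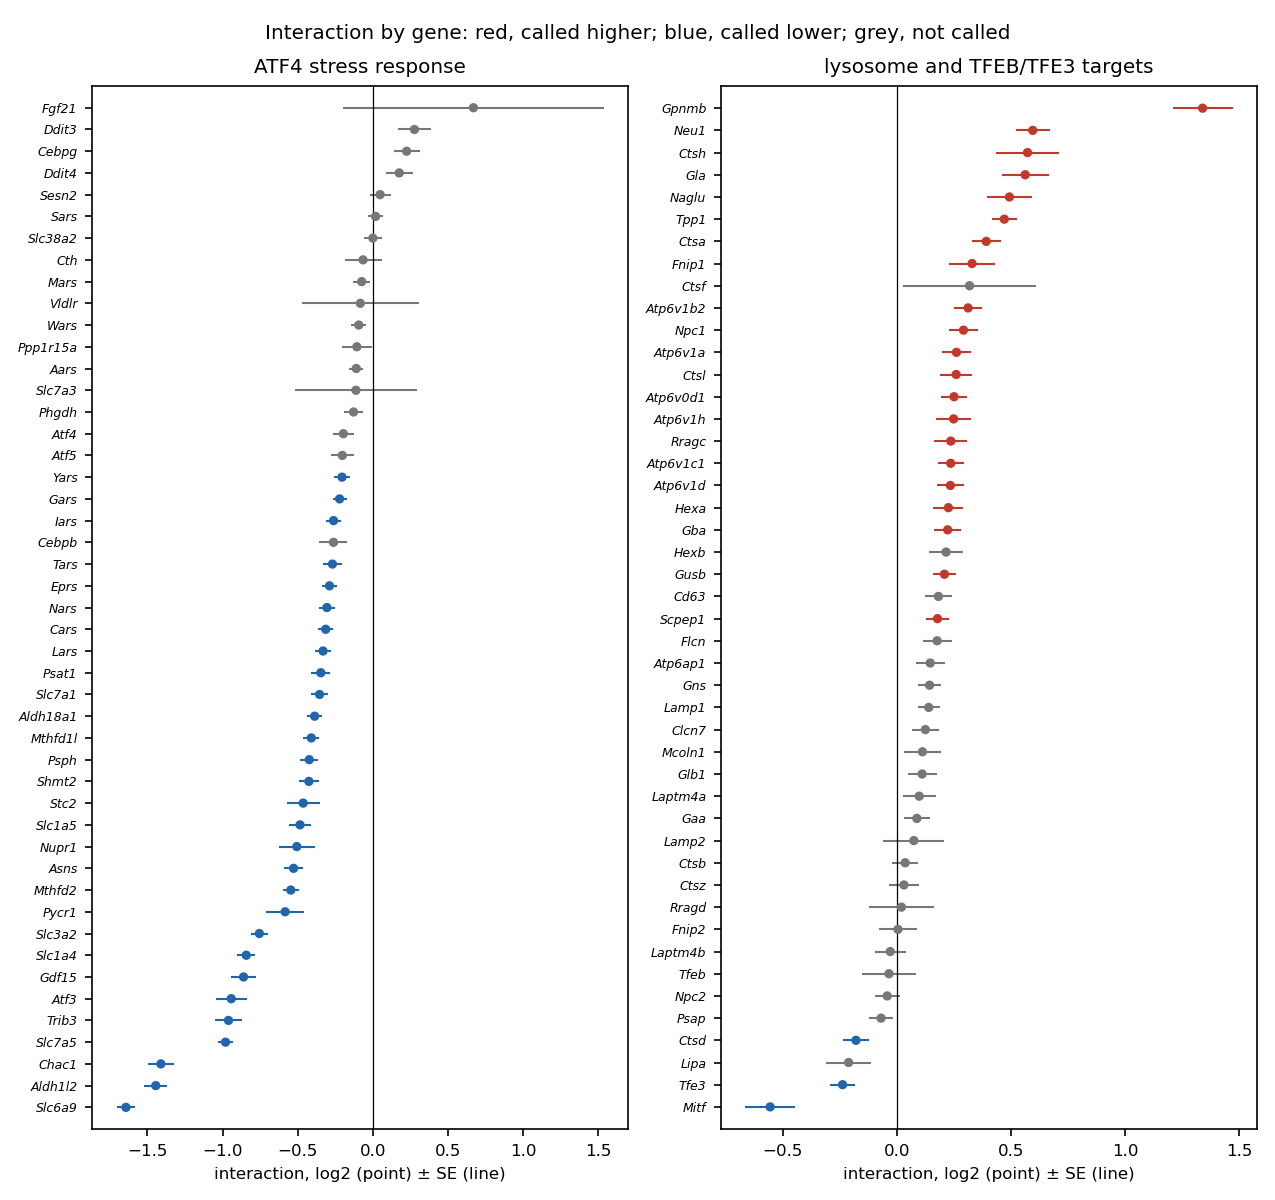
Interaction on the log2 scale for the 47 tested members of the ATF4 list (left) and the 46 of the lysosome list (right), with points for estimates and lines for ± SE. Blue members were called lower than additive, red members higher and grey members were not called. The ATF4 list holds 29 blue and 0 red members, and the lysosome list 21 red and 3 blue.

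NRF2 targets rose with siKeap1 in both settings, and most departures were toward a smaller rise with both siRNAs. Of 47 tested members (49 of the 50 listed are in the files), siKeap1 alone raised 44 and lowered 0, with a median log2 change of 1.204, and in siFem1b cells it raised 40 and lowered 0, with a median of 0.79. Of all genes tested, siKeap1 raised 18.4% alone and 21.3% in siFem1b cells. The interaction was called lower in 24 (51.1%, against 5.32% of all genes) and higher in 7 (14.9%, against 6.11%), with a median of -0.28. The antioxidant response element TGACNNNGC, read on both strands, was in 12 of 39 genes of the list (30.8%) and in 16.3% of all tested genes with a window. The share was 32.4% in the ATF4 list and 27.8% in the lysosome list, close to that of the NRF2 list. It did not overlap a match of TGATGNAA in any window. The linear scale called 34 lower and 1 higher. The list was written from textbook targets of NRF2 with results of these libraries known.

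Among the NRF2 targets that fell short were Gclm, Aldh3a1 and Hmox1. Gclm, the modifier subunit of glutamate-cysteine ligase, read 82.5, 84.0 and 83.5 CPM in siCont, 242, 241 and 250 CPM in siKeap1, 53.4, 46.0 and 47.9 CPM in siFem1b and 60.1, 59.6 and 59.4 CPM with both. The double depletion lay below siCont, against 144 CPM predicted (interaction -1.27 ± 0.06, adjusted p = 2.73e-10). Its promoter holds an antioxidant response element match on the minus strand, 134 bases before the start.
Gclm, chr3:122245412-122245441, plus strand: cgctcccgggcGCACCGTCAactctcacga
Aldh3a1, an aldehyde dehydrogenase, read 61.5, 61.6 and 64.2 CPM in siCont, 664, 665 and 645 CPM in siKeap1, 16.4, 15.1 and 17.2 CPM in siFem1b and 64.7, 62.4 and 67.0 CPM with both, a level that overlapped siCont and was 2.65 times under the 171 CPM predicted (interaction -1.40 ± 0.06, adjusted p = 8.67e-11). Hmox1, heme oxygenase 1, was 36.5 ± 1.80 CPM (SD, n = 3) with both against 68.5 predicted (interaction -0.91 ± 0.07, adjusted p = 4.76e-08). Smaller shortfalls were called for Txnrd1, thioredoxin reductase 1 (-0.52 ± 0.05), Srxn1, sulfiredoxin (-0.35 ± 0.06), and Gclc, the catalytic subunit of glutamate-cysteine ligase (-0.25 ± 0.06, adjusted p = 0.014). The members of the glutamate-cysteine ligase pair thus departed by different sizes in the same libraries. G6pdx, the entry enzyme of the pentose phosphate pathway, was not called (0.12 ± 0.05, adjusted p = 0.11), nor was the ferritin heavy chain Fth1 (0.04 ± 0.06, adjusted p = 0.73).

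A few NRF2 targets rose more than additively. Tkt, transketolase of the pentose phosphate pathway, read 125 ± 4.39 CPM (SD, n = 3) in siCont, 197 ± 4.31 in siKeap1, 99.3 ± 3.75 in siFem1b and 222 ± 4.55 with both, against 156 predicted (interaction 0.51 ± 0.06, adjusted p = 6.00e-06). The double depletion was also above the sum on the linear scale, by 51.1 CPM. Gsta1, a glutathione S-transferase, read 36.7, 34.9 and 37.1 CPM in siCont, 456, 452 and 436 CPM in siKeap1, 1.57, 1.67 and 1.71 CPM in siFem1b and 42.2, 36.1 and 42.0 CPM with both, against 20.4 predicted (interaction 0.97 ± 0.11, adjusted p = 7.91e-06). Gsta4 (0.36 ± 0.06) and the ferritin light chain Ftl1 (0.33 ± 0.08, adjusted p = 0.014) were called higher too. On the linear scale these last 3 genes turned direction, by -373 CPM for Gsta1, -317 for Gsta4 and -1237 for Ftl1. The Ftl1 call was lost when 1 library was left out (highest adjusted p = 0.074). The counts of Ftl1 and Gsta1 are uncertain, because reads can be shared with close copies of these genes. Nfe2l2 mRNA was additive, at 51.4 CPM with both against 48.9 predicted (interaction 0.07 ± 0.05, adjusted p = 0.42).

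**Figure D3:**
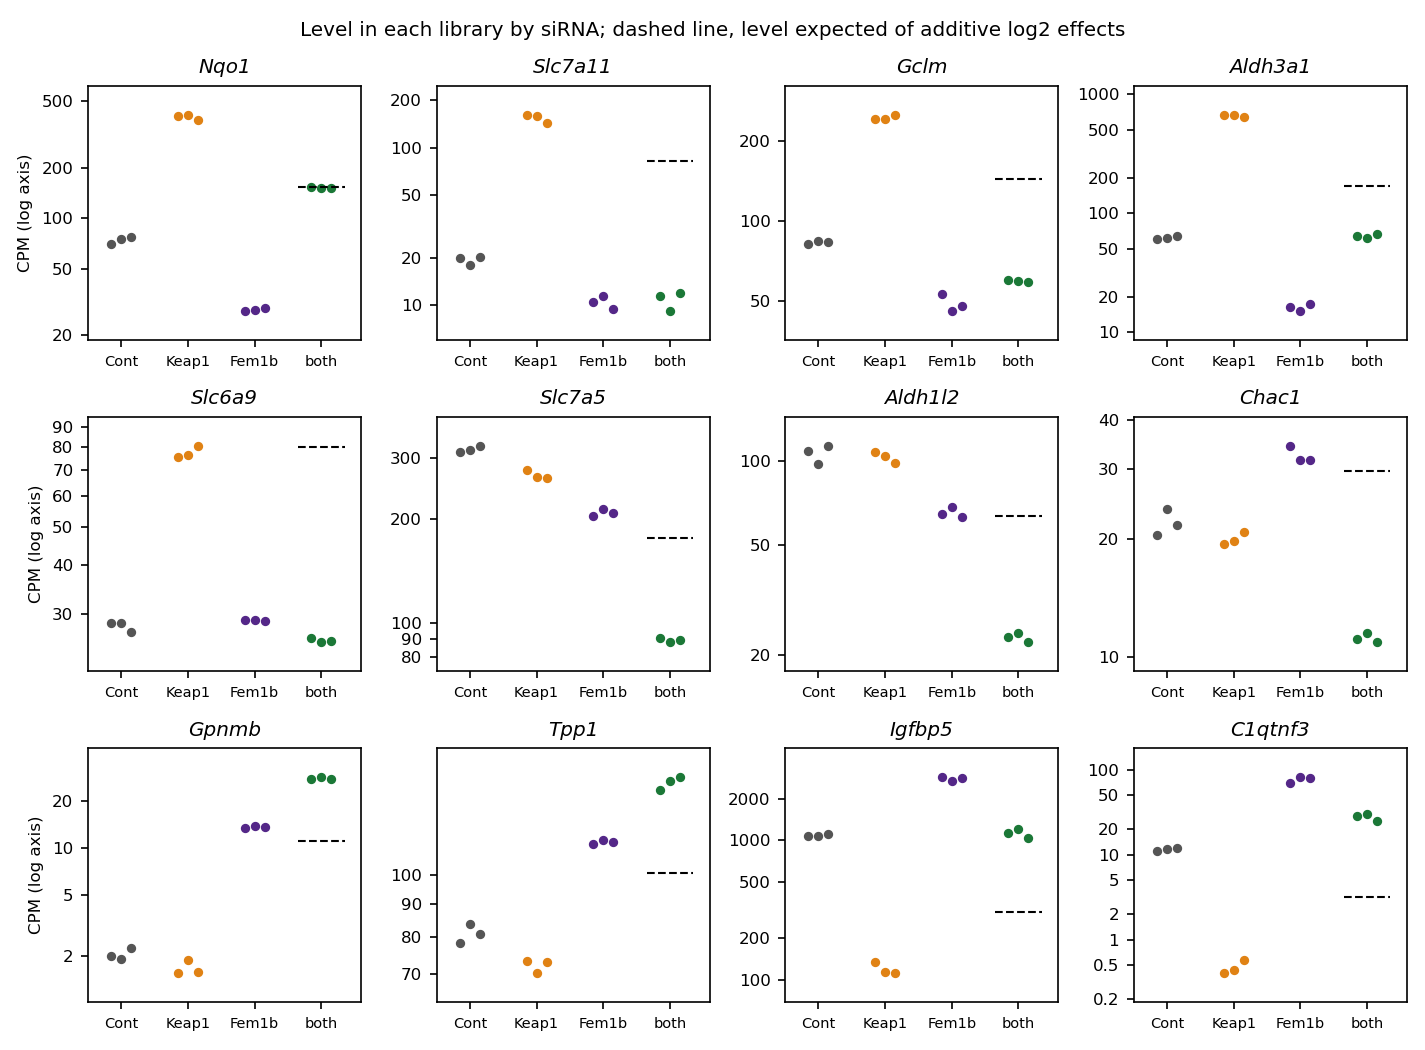
CPM of 12 genes in each of the 12 libraries, on log axes, with 3 points per siRNA group and a dashed line at the level that additive log2 effects predict for both siRNAs. Nqo1 sits on its line, the next 7 genes lie below theirs and the last 4, Gpnmb, Tpp1, Igfbp5 and C1qtnf3, lie above.

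Most sarcomere genes rose with siFem1b, and for a part of them the rise was smaller in siKeap1 cells. siFem1b alone raised 47 of 52 tested members (60 listed) and in siKeap1 cells 39, with median log2 changes of 2.67 and 1.53. Of all genes tested, siFem1b raised 30.0% alone and 32.0% in siKeap1 cells. The interaction was called lower in 18 (34.6%, against 5.32% of all genes), higher in 2 (3.85%, against 6.11%) and not at all in 32, with a median of -0.47. The other settings on the log2 scale called 11 to 20 lower, the fewest with an offset for transcript length. On the linear scale 37 were called lower and 1 higher. Mylpf, a fast myosin light chain, read 1.62, 1.21 and 1.59 CPM in siCont, 1.06, 1.35 and 0.79 CPM in siKeap1, 25.7, 26.3 and 26.9 CPM in siFem1b and 5.53, 5.03 and 4.27 CPM with both, against 19.1 predicted (interaction -1.93 ± 0.22, adjusted p = 8.3e-06). Tmod1, tropomodulin 1, was at -1.34 ± 0.15 and Tnnc1, cardiac and slow troponin C, at -1.41 ± 0.18.

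Myl1, another myosin light chain, departed the other way. It read 3.16, 3.82 and 2.86 CPM in siCont, 0.31, 0.52 and 0.45 CPM in siKeap1, 44.6, 48.9 and 49.8 CPM in siFem1b and 17.6, 15.8 and 15.5 CPM with both, against 6.22 predicted (interaction 1.35 ± 0.21, adjusted p = 0.00032). The prediction for Myl1 rests on its low siKeap1 level of 0.31 to 0.52 CPM. Myog, the myogenic factor that starts differentiation, read 1.54, 1.85 and 1.32 CPM in siCont, 57.3, 58.4 and 62.2 CPM in siFem1b and 5.22, 5.47 and 4.21 CPM with both. In siKeap1 it rested on 4 counts in all 3 libraries, so its interaction of 1.70 ± 0.52 (adjusted p = 0.039) has a weak base, and it was lost when 1 library was left out (highest adjusted p = 0.16). Tnnt1, slow troponin T, was the other member called higher, at 1.78 ± 0.40, and its call was likewise lost (highest adjusted p = 0.051). Myl1, Myog and Tnnt1 turned direction on the linear scale, by -28.7, -52.8 and -8.97 CPM. Myod1, the myoblast determination factor, was called lower (-0.30 ± 0.07, adjusted p = 0.0080), with 65.8 ± 2.18 CPM (SD, n = 3) with both against 81.1 predicted.

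**Figure D4:**
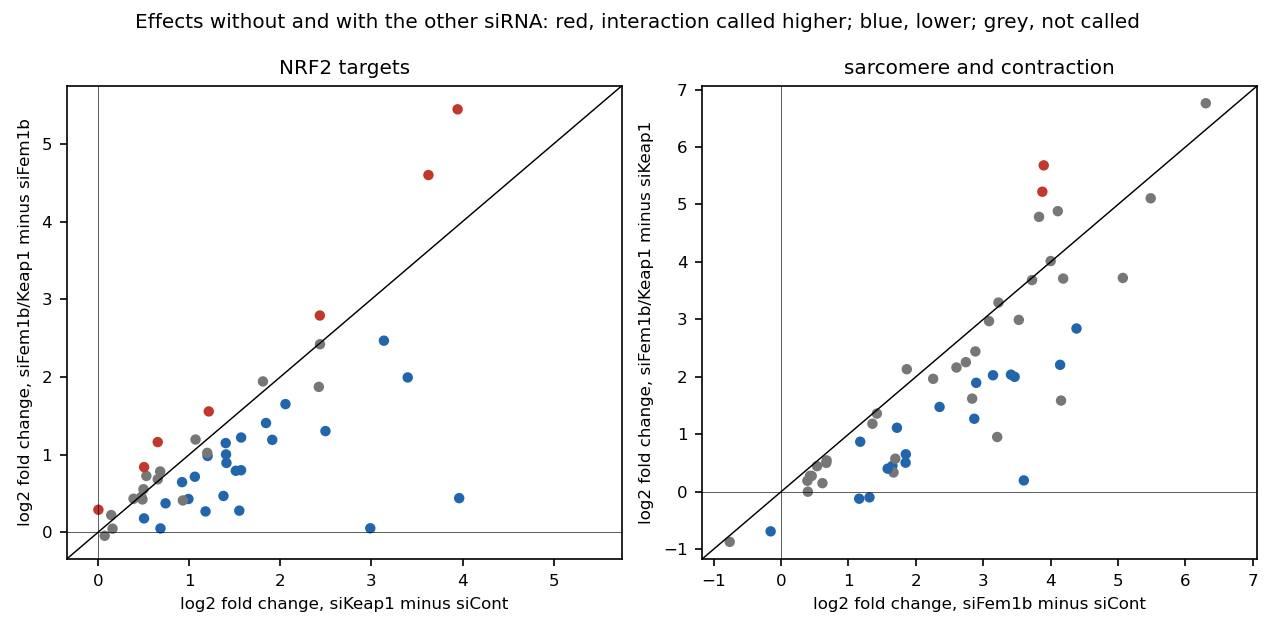
Log2 fold changes of NRF2 targets with siKeap1 (left) and of sarcomere genes with siFem1b (right), without the other siRNA on the horizontal axis and with it on the vertical axis. Points on the line are additive, blue points were called lower and red points higher. The NRF2 list holds 24 blue and 7 red points, and the sarcomere list 18 blue and 2 red.

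A part of the lysosomal genes was higher than additive. Of 46 tested members of the list of lysosomal genes and TFEB or TFE3 targets (49 listed), 21 were called higher (45.7%, against 6.11% of all genes), 3 lower (6.52%, against 5.32%) and 22 not at all, with a median of 0.18. In 23 of the 46 the double-depletion libraries lay above all 9 others, against 12.3% of all genes tested. Additive rises can place them highest too, so this rank does not measure the departure. siFem1b alone raised 29 (against 30.0% of all genes) and lowered 6 (against 32.1%). In siKeap1 cells siFem1b raised 34 (against 32.0%) and lowered 8 (against 31.6%). siKeap1 alone raised 13 and lowered 14, and in siFem1b cells it raised 27 and lowered 3. Of all genes tested, it raised 18.4% and lowered 23.8% alone, and raised 21.3% and lowered 21.8% in siFem1b cells. The count of members called higher in the interaction differed between settings. It was 7 with the first run alone, 12 with the second, 12 on the linear scale, 10 with an offset for transcript length, 10 without siFem1b replicate 1, 11 without siFem1b replicate 3, and 13 without either siFem1b/Keap1 replicate 1 or replicate 3. The members called included hydrolases and 6 subunits of the proton pump that acidifies the lysosome. Gpnmb, a lysosomal membrane glycoprotein, read 2.01, 1.91 and 2.27 CPM in siCont, 1.56, 1.90 and 1.58 CPM in siKeap1, 13.5, 13.9 and 13.6 CPM in siFem1b and 27.9, 28.6 and 27.9 CPM with both, 2.53 times the 11.1 CPM predicted (interaction 1.34 ± 0.13, adjusted p = 1.4e-06). Tpp1, a lysosomal peptidase, read 78.1, 83.6 and 80.8 CPM in siCont, 73.4, 70.2 and 73.0 CPM in siKeap1, 112, 113 and 113 CPM in siFem1b and 136, 140 and 142 CPM with both (interaction 0.47 ± 0.05, adjusted p = 9.7e-06). siKeap1 thus lowered Tpp1 alone (log2 -0.16) and raised it in siFem1b cells (0.31), and Neu1, the lysosomal sialidase, did likewise (-0.25 and 0.35, interaction 0.60 ± 0.07).

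The 3 members called lower were regulators and a protease. Mitf, a relative of TFEB, was at -0.56 ± 0.11 (adjusted p = 0.0021), Tfe3 at -0.24 ± 0.05 (adjusted p = 0.0071) and Ctsd, cathepsin D, at -0.18 ± 0.06 (adjusted p = 0.048). Fnip1, whose protein is the FEM1B substrate, read 67.9, 63.0 and 71.0 CPM in siCont, 55.1, 59.2 and 53.5 CPM in siKeap1, 59.0, 69.7 and 62.0 CPM in siFem1b and 65.5, 72.4 and 60.9 CPM with both. The siCont, siFem1b and double-depletion libraries overlapped, as did those of siKeap1 and siFem1b, and the interaction of 0.33 ± 0.10 (adjusted p = 0.044) was lost when 1 library was left out (highest adjusted p = 0.15). Flcn was not called (0.18 ± 0.06, adjusted p = 0.087), nor was Ppargc1a (-0.35 ± 0.38, adjusted p = 0.62), the coactivator of mitochondrial genes, which averaged 0.689 CPM in siCont and 1.82 CPM with both. The E-box CACGTG, the core of the element bound by TFEB and TFE3, was in 8 of 15 members called higher with a window (53.3%). It was in 1 of 3 members called lower (33.3%) and in 15 of 36 of the list (41.7%), against 11.2% of tested genes. Of all genes called higher 15.4% held it, 14.6% without this list, and of genes called lower 9.02%. The list holds known TFEB and TFE3 targets, so its share describes the list and is no test. In 101 of all windows the E-box overlapped a match of TGACNNNGC and in 3 one of TGATGNAA. Examples from members called higher follow, with the E-box in capitals; Ctsa, Gla, Naglu and Atp6v1a were chosen for their matches after values were seen.
Ctsa, chr2:164833743-164833772, plus strand: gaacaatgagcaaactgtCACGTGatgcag
Gla, chrX:134601182-134601211, minus strand: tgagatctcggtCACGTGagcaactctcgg
Naglu, chr11:101070009-101070038, plus strand: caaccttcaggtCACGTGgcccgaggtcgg
Atp6v1a, chr16:44139373-44139402, minus strand: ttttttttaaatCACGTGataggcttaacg
Fnip1, chr11:54438092-54438121, plus strand: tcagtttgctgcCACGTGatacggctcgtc

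Most mitosis genes fell with each siRNA, and a part of them fell slightly more with both than the sum predicts. Of 51 members 18 were called lower (35.3%, against 5.32% of all genes) and 0 higher (against 6.11%), with a median of -0.18 and a largest departure of -0.38. siKeap1 alone lowered 48 (against 23.8% of all genes), and siFem1b alone lowered 48 (against 32.1%) and raised 1. In all 51 the double-depletion libraries lay below all 9 others, against 11.8% of all genes. Additive falls with both siRNAs would also place them lowest, so this rank does not measure the departure. The number called lower was 1 on the linear scale, 6 with an offset for transcript length, 11 without siCont replicate 1, 9 without siKeap1 replicate 1, 11 without siKeap1 replicate 2 or siFem1b/Keap1 replicate 2, and 27 without siFem1b replicate 2. The 34 other settings on the log2 scale, DESeq2's Wald test among them, called 0 higher, and at an unadjusted p under 0.05 edgeR put 0 on the higher side. Cenpe, a kinetochore motor, read 241 ± 13.3 CPM (SD, n = 3) in siCont, 199 ± 3.98 in siKeap1, 173 ± 11.3 in siFem1b and 113 ± 4.31 with both, against 143 predicted (interaction -0.34 ± 0.07, adjusted p = 0.0034). Tpx2, a spindle assembly factor, was at -0.24 ± 0.05 (adjusted p = 0.0033). Of 52 genes of DNA replication and S phase, siKeap1 alone lowered 38 (against 23.8% of all genes) and siFem1b alone 50 (against 32.1%). Their interaction was called lower in 1 (1.92%, against 5.32%) and higher in 2 (3.85%, against 6.11%), with a median of -0.030. Over the 34 other settings on the log2 scale 0 to 7 were called lower and 0 to 2 higher.

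AP-1 and immediate early genes were mixed but more often lower, with 13 of 32 called lower (40.6%), 5 higher (15.6%) and a median of -0.16. Over the 34 other settings on the log2 scale 10 to 15 were called lower and 1 to 5 higher. On the linear scale 11 were called lower and 2 higher. Of all genes tested, 5.32% were called lower and 6.11% higher. Egr3, a zinc finger factor induced by growth signals, read 16.3 ± 1.34 CPM (SD, n = 3) in siCont, 29.2 ± 1.44 in siKeap1, 25.2 ± 1.11 in siFem1b and 24.3 ± 0.942 with both, against 45.2 predicted (interaction -0.89 ± 0.09, adjusted p = 1.7e-06). Egr3 rose with either siRNA, and the level with both overlapped that of siFem1b and was under that of siKeap1. Egr1 was at -0.59 ± 0.08, whereas Spry2, an inhibitor of receptor kinase signalling, was called higher (0.39 ± 0.07, adjusted p = 0.0011). In the BMP and ID list 7 of 23 were called lower (30.4%, against 5.32% of all genes) and 1 higher (4.35%, against 6.11%). Other settings on the log2 scale called 5 to 10 of this list lower and 0 to 1 higher, and the linear scale 7 lower and 0 higher. Id2 and Id3, inhibitors of myogenic factors, were at -0.51 ± 0.06 and -0.43 ± 0.07.

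Glycolysis and hypoxia genes leaned higher, with 12 of 36 called higher (33.3%, against 6.11% of all genes), 1 lower (2.78%, against 5.32%) and a median of 0.14. The higher count was 4 with the first run alone, 5 with an offset for transcript length and 7 without siFem1b/Keap1 replicate 1. P4ha2, a collagen prolyl hydroxylase subunit, read 67.3 ± 1.55 CPM (SD, n = 3) in siCont, 61.7 ± 0.195 in siKeap1, 61.7 ± 1.43 in siFem1b and 79.5 ± 1.86 with both (interaction 0.49 ± 0.05, adjusted p = 6.2e-06). Each siRNA alone left P4ha2 slightly below control and both together left it above. Pfkl, liver-type phosphofructokinase, fell with either siRNA and was at 0.33 ± 0.05, a fall smaller than the sum. Vegfa, the angiogenic growth factor, was the member called lower (-0.54 ± 0.07, adjusted p = 8.1e-05). Among 19 lipid storage genes 5 were called higher (26.3%, against 6.11% of all genes) and 1 lower (5.26%, against 5.32%), and the higher count was 2 with the first run alone, 3 with an offset for transcript length and 8 on the linear scale. Plin2, a lipid droplet coat protein, read 248 ± 6.77, 240 ± 2.90 and 273 ± 2.85 CPM (SD, n = 3) in siCont, siKeap1 and siFem1b against 406 ± 11.2 with both (interaction 0.62 ± 0.05, adjusted p = 9.7e-08). Of 43 interferon response genes, 36 rose with siFem1b alone, which raised 30.0% of all genes. The interaction was called higher in 5 of them (11.6%, against 6.11% of all genes) and lower in 0. At an unadjusted p under 0.05 edgeR put 1 on the lower side, and each of the 34 other settings, DESeq2's Wald test among them, called 0 lower. The higher count ran from 1 to 6 over those settings, was 3 without any single one of siKeap1 replicate 2 or 3, siFem1b replicate 1 or 3, or siFem1b/Keap1 replicate 1 or 3, and was 10 on the linear scale. Stat2, a signal transducer of type I interferon, fell with siKeap1 alone (log2 -0.26) and rose with it in siFem1b cells (0.32).

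**Figure D5:**
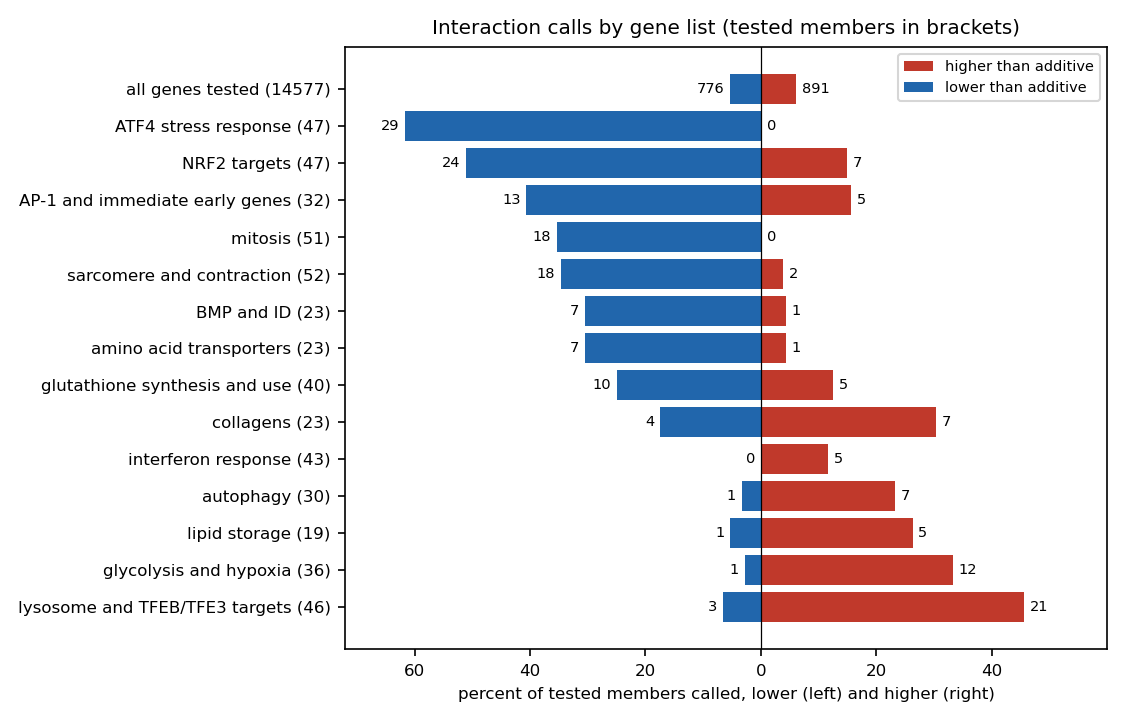
Percent of the tested members of each gene list called lower (blue, left) and higher (red, right) in the interaction, with counts at the bar ends and tested members in brackets. The first row gives all 14577 genes, with 776 lower and 891 higher. The ATF4 list has the longest bar on the lower side and the lysosome list the longest on the higher side among the lists drawn.

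Genes outside the lists above were also named for the size of their departure, among them secreted proteins. C1qtnf3, a secreted C1q and TNF-related protein (chr15:10952332-10980150, plus strand), read 11.1, 11.7 and 12.1 CPM in siCont, 0.41, 0.44 and 0.58 CPM in siKeap1, 70.3, 81.6 and 80.5 CPM in siFem1b and 28.6, 30.4 and 24.7 CPM with both. The siKeap1 effect was -4.59 log2 units alone and -1.47 in siFem1b cells; the level with both was 8.69 times the 3.17 CPM predicted (interaction 3.12 ± 0.19, adjusted p = 7.4e-09). Igfbp5, a binding protein that holds IGF in the medium, read 1073, 1074 and 1117 CPM in siCont, 134, 113 and 111 CPM in siKeap1, 2842, 2694 and 2834 CPM in siFem1b and 1134, 1203 and 1048 CPM with both, against 306 predicted (interaction 1.88 ± 0.09, adjusted p = 4.4e-10). The prediction for C1qtnf3 rests on its low siKeap1 level of 0.41 to 0.58 CPM. C1qtnf3 and Igfbp5 were both lower than additive on the linear scale, by -38.4 and -694 CPM. Igfbp3, another IGF binding protein, went the other way: either siRNA raised it, and with both it read 24.8 ± 1.83 CPM (SD, n = 3) against 81.5 predicted (interaction -1.71 ± 0.10, adjusted p = 2.3e-09).

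Several genes reached a higher level with siKeap1 alone than with both siRNAs. Cyp1a1, a target of the aryl hydrocarbon receptor, read 2.32, 1.85 and 2.32 CPM in siCont, 18.0, 19.4 and 15.9 CPM in siKeap1, 6.44, 7.31 and 6.70 CPM in siFem1b and 11.5, 12.6 and 11.9 CPM with both, against 56.0 predicted (interaction -2.21 ± 0.14, adjusted p = 4.7e-09). Acss2, which makes acetyl-CoA from acetate, read 8.71, 8.66 and 8.56 CPM in siCont, 42.1, 44.3 and 41.0 CPM in siKeap1, 13.4, 14.9 and 13.5 CPM in siFem1b and 18.0, 19.9 and 18.1 CPM with both (interaction -1.88 ± 0.09, adjusted p = 9.2e-11). In both genes siFem1b raised the level alone and lowered it in siKeap1 cells, and the groups did not overlap. Adh7, an alcohol and retinol dehydrogenase, rose from 36.0 ± 1.19 to 106 ± 1.87 CPM (SD, n = 3) with siKeap1 alone and read 23.1 ± 1.16 in siFem1b and 23.2 ± 1.35 with both (interaction -1.54 ± 0.07, adjusted p = 8.7e-11). Mmp10, a matrix metalloproteinase, was at -1.73 ± 0.15.

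In 313 of the 891 genes called higher the double-depletion libraries lay above all 9 others, and in 183 of the 776 called lower they lay below. Of all 14577 genes tested, 1795 (12.3%) lay above and 1726 (11.8%) below. The calls use the same libraries, so an excess is built into the selection and is no test. Avil changed by -0.11 log2 units with siKeap1 alone and 0.23 with siFem1b alone, and Prr9 by 0.40 and 0.09. Avil, the actin-binding protein advillin, read 4.96, 5.0 and 4.72 CPM in siCont, 4.77, 4.13 and 4.70 CPM in siKeap1, 5.78, 5.55 and 5.81 CPM in siFem1b and 13.4, 14.6 and 14.1 CPM with both (interaction 1.41 ± 0.12, adjusted p = 1.6e-07). Prr9, a proline-rich protein, read 6.55, 8.28 and 8.39 CPM in siCont, 10.4, 10.6 and 9.75 CPM in siKeap1, 8.68, 8.20 and 7.78 CPM in siFem1b and 22.9, 21.5 and 21.4 CPM with both (interaction 1.01 ± 0.12, adjusted p = 1.3e-05). Il1rn, the interleukin-1 receptor antagonist (1.04 ± 0.15), Fuca2, a secreted fucosidase (0.96 ± 0.14), Spint1, an inhibitor of serine proteases (0.87 ± 0.12), and Tcn2, the vitamin B12 carrier transcobalamin 2 (0.66 ± 0.13), also stood above all other libraries. On the lower side the rule gave Aldh1l2, Slc7a5, Trib3, Atf3 and Mthfd2, all of the ATF4 list, and Hhip, a hedgehog-binding protein, at -0.41 ± 0.08, which was at 1.01 CPM above the sum on the linear scale.

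Some genes answered one siRNA in opposite directions depending on the other. Gpr137b, a lysosomal membrane protein that interacts with Rag GTPases, read 164, 161 and 158 CPM in siCont, 144, 140 and 141 CPM in siKeap1, 109, 112 and 105 CPM in siFem1b and 201, 205 and 203 CPM with both, 2.13 times the 95.4 CPM predicted (interaction 1.09 ± 0.05, adjusted p = 8.7e-11). Either siRNA alone lowered Gpr137b and adding either to the other raised it, by 0.90 log2 units for siKeap1 and 0.52 for siFem1b, and the groups did not overlap. A copy of this gene shares its sequence, so its counts are uncertain. Kitl, the ligand of the KIT receptor, rose by 0.59 with siKeap1 alone and changed by -0.35 with siKeap1 in siFem1b cells, and Foxo6, a forkhead factor, changed by 0.32 and -0.99. For the siFem1b effect, 84 genes rose alone and fell in siKeap1 cells, and 53 did the reverse.

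Of the 1667 genes called on the log2 scale, 895 were also called on the linear scale, which called 1388 in all. In 26 of the 895 the direction was opposite, as for C1qtnf3, Igfbp5 and Gsta1. Over all 1667 genes, called on the linear scale or not, it was opposite in 68. Of the 1667 genes, 922 kept their direction and an adjusted p under 0.05 in each of the 12 fits that left out 1 library, 396 higher and 526 lower.

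Markers of other cell types were checked for their level. All 10 myoblast markers averaged at least 1 CPM over the libraries, and their sum lay between 1633 and 2591 CPM. Of these, 2 were called lower than additive and 0 higher (0 also at an unadjusted p under 0.05 and by DESeq2). The 34 other settings on the log2 scale called 0 to 1 of them higher. Of 20 epithelial markers 13 averaged under 1 CPM. Their sum ran from 47.1 to 52.5 CPM in siCont, 132.8 to 139.4 in siKeap1, 86.6 to 95.4 in siFem1b and 157.2 to 175.7 with both. Of the 12 tested, 3 were called lower than additive and 1 higher, with Krt14, a basal keratin, at -1.37 ± 0.10. Of 13 leukocyte markers 11, of 10 endothelial markers 8 and of 7 adipocyte markers 5 averaged under 1 CPM, and 0 of the 3, 7 and 3 tested was called by edgeR, against 1, 2 and 2 at an unadjusted p under 0.05 and 0 in each by DESeq2's Wald test. Over the 34 other settings on the log2 scale, 0 leukocyte, 0 to 1 endothelial and 0 to 1 adipocyte markers were called lower, and 0 higher. The linear scale called 1 leukocyte and 1 adipocyte marker higher. Adgre1, a macrophage marker, and Cldn5, an endothelial one, were at 0 in all libraries. Fibroblast markers summed to 1913 to 1946 CPM in siCont, 1185 to 1254 in siKeap1, 3369 to 3466 in siFem1b and 2943 to 3007 with both, with 2 called higher and 1 lower of 8 tested. Of 7 neural markers tested 3 were called lower, and of all genes tested 5.32% were called lower and 6.11% higher. The part of these markers in the other results was not tested.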

How the data were processed

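Poly(A)-selected RNA was sequenced from 12 libraries in 2 runs each. The authors quantified transcripts with kallisto 0.44.0 on mm10, per the submitters' processing notes. The deposited files hold estimated counts, TPM (transcript abundance corrected for length and library total) and effective transcript length. The estimated counts were used, the deposited TPM values were not tested, and the effective lengths entered 1 alternative. Both runs were summed. Of 118489 transcripts, 116728 (98.51%) were matched to GENCODE M21 genes, and the unmatched ones held 0.6075% to 0.6366% of counts. Counts were summed per gene and rounded. In 11 of 12 libraries the second run was closest to its own first run.

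The interaction and the simple comparisons came from 1 edgeR 4.0.16 quasi-likelihood fit (R 4.3.3) with TMM scaling, filterByExpr, 1 term per group and 8 residual degrees of freedom. Tests were 2-sided with Benjamini-Hochberg adjustment over 14577 genes and a threshold of 0.05. Adjusted p-values in the text are from this fit unless another tool is named. Members, gene lists and the naming rule were chosen with earlier results of these data known. Only a part of the 52 lists scored is described above. Among those left out, 49 of 50 respiratory chain genes and 63 of 66 cytosolic ribosome genes were not called, against 88.6% of all genes. The same held for 61 of 63 mitochondrial ribosome genes, but for only 4 of 13 acetylcholine receptor and neuromuscular junction genes. The rule named a fixed set of pathway genes; the 12 largest departures each way and the 6 smallest p-values each way among genes averaging at least 5 CPM that held in all 12 leave-one-out fits; up to 3 called members per list and direction; and genes with the double depletion beyond all others or with effects in opposite directions. On simulated counts for 14344 genes, the interaction test recovered 85 of 100 genes changed 1.5-fold and 95 of 100 changed 2-fold, with 10 false calls among 190. The counts were drawn with the spread that the same fit had estimated, and all other genes were made additive. Changed genes were drawn above a low CPM limit. These rates therefore need not hold for the measured libraries. Alternatives used DESeq2 1.42.0, limma 3.58.1, other filters, runs and thresholds, a transcript length offset, a replicate block, each library left out, and a linear scale. The alternatives with each library in turn as TMM reference were chosen after seeing the data. Promoters were matched by symbol to RefSeq windows.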

Additional observations from a re-analysis of the deposited data

How the results depend on the processing

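The 1667 interaction calls became 906 with the first run alone, 822 with an offset for transcript length, 880 at an adjusted p of 0.01 and 374 with a 1.5-fold minimum. The 891 higher calls became 275 with the first run, 527 with the second, 363 with the length offset, 431 at 0.01 and 135 with the 1.5-fold minimum, and the 776 lower calls became 459 with the length offset, 449 at 0.01 and 239 with the 1.5-fold minimum. Leaving out 1 library gave 1272 to 1913 calls in all, 499 to 866 higher and 612 to 1192 lower. With the 1.5-fold minimum the simple comparisons fell to 1470 calls for siKeap1 alone, 1365 with siFem1b, 3079 for siFem1b alone and 3463 with siKeap1. Apart from the thresholds, the cause of these shifts was not tested. The median interaction over all genes was -0.027 with the first run alone and -0.019 with the second, against 0.020 with both runs. The replicate block gave 1482 interaction calls. Deviations of same-numbered libraries correlated at -0.07803 to 0.1169 and 2 of 12 libraries correlated best with their own number, so the numbers were not taken as pairs. On the linear scale 9 of 72 named genes changed direction: C1qtnf3 (-38.4 CPM), Ftl1 (-1237), Gsta1 (-373.2), Gsta4 (-316.7), Hhip (1.014), Igfbp5 (-693.5), Myl1 (-28.65), Myog (-52.81) and Tnnt1 (-8.971). Of the 1667 calls, 94.3% were called in the same direction with DESeq2 size factors, 92.4% with DESeq2's Wald test and 46.4% with the length offset. The median standard error of 0.097 log2 units limits what departures were detectable.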
